A study of Rattus norvegicus with 56 samples.

Results

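The nuclear-encoded subunits of the oxidative phosphorylation machinery were followed in the hippocampus and parietal cortex of 24 male Long-Evans rats. The members were the genes whose array probe led, through its RefSeq transcript, to a rat symbol of the Nduf (a, b, c, s or v followed by a digit), Sdh (a to d), Uqcr, Cox (4 to 8) or Atp5 families, with the brightest probe standing for each gene. The symbol rule gave 79 genes out of 16581 named genes on the array, read by 105 probes: 32 of complex I, 4 of complex II, 8 of complex III, 19 of complex IV and 16 of complex V. The rule covered 1 transcribed pseudogene, Cox6c-ps1, and 1 paralog, Ndufa10l1, which can share sequence with their parent genes, so the readings of Cox6c and Cox6c-ps1 and of Ndufa10 and Ndufa10l1 are not certain to be separate. The mitochondrial-encoded subunits and nuclear subunits with other names, such as Cyc1, do not fall under the rule. Some genes that it would cover had no probe that was matched, among them Cox7a1, Atp5mc3, Ndufa8 and Ndufs6. The complexes are therefore not complete.

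Young rats (Y, 6 to 7 months) and aged rats (26 to 27 months) received either intermittent theta burst stimulation (iTBS), in which magnetic pulses are given over the skull in short bursts, or a sham session with the coil held at a distance from the head, and tissue was collected 48 h later. Aged rats had been sorted by a water maze into unimpaired (AU) and impaired (AI) learners. The groups were Y_Sham and Y_iTBS (4 rats each), AU_Sham (4), AU_iTBS (5), AI_Sham (4) and AI_iTBS (3), and both regions were read in every rat. All rats, sham included, were lightly anaesthetised with isoflurane and sedated with dexmedetomidine, which was then reversed, and aged rats had a lower sedative dose per body weight than young rats. Impairment is a behavioural class within one strain and sex, the brain tissue is a mixture of cell types, and in such tissue fewer cells of a type and less RNA per cell cannot be told apart.

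Oxidative phosphorylation is the last stage of respiration in the inner mitochondrial membrane. Complex I takes electrons from NADH and complex II takes them from succinate, complex III passes them to cytochrome c, and complex IV hands them to oxygen. Complexes I, III and IV pump protons as they do so, and complex V, the ATP synthase, uses the returning protons to make ATP. Neurons draw most of their ATP from this chain, and several complex IV subunits exist as paired forms, one broadly expressed and one best known from heart, skeletal muscle, lung or testis. Transcription factors NRF1 and GABPA (which binds an ETS-type site) are known regulators of many nuclear genes of the chain.

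The stretches of DNA just before the transcription start are shown for 6 members. Cox6a2 and Cox8b are the heart and muscle forms of subunits 6a and 8, of which Cox8b did not pass the test between regions. Cox7a2, Uqcrh and Atp5pf are 3 of the broadly expressed members that were lower in hippocampus. Ndufv3 was the single member that was higher there. Each line holds the 150 bases before the RefSeq start in the rat build GRCr8, 5′ to 3′ on the strand of the gene, with capitals marking every match to a searched motif on either strand.
Cox6a2, chr1:192219717-192219866 (- strand): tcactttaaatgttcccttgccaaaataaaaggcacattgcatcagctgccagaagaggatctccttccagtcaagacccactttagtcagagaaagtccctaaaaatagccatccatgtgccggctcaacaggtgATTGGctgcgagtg
Cox8b, chr1:205408274-205408423 (- strand): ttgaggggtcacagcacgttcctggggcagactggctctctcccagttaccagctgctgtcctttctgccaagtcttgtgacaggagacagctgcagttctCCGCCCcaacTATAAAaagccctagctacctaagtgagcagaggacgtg
Cox7a2, chr8:89601150-89601299 (- strand): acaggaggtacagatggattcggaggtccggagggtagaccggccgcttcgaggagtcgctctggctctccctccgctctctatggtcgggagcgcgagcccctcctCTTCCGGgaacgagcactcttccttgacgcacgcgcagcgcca
Uqcrh, chr5:134790883-134791032 (- strand): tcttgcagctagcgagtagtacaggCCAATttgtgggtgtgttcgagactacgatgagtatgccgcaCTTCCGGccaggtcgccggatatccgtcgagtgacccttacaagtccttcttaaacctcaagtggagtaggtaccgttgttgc
Atp5pf, chr11:37375102-37375251 (- strand): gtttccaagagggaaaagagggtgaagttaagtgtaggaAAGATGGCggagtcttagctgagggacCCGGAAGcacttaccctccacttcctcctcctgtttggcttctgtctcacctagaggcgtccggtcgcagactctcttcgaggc
Ndufv3, chr20:9613636-9613785 (+ strand): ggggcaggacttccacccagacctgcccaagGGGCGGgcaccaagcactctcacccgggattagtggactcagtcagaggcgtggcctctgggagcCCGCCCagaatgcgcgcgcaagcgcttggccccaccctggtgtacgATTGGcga

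The core of the NRF1 site was searched as GCATGCGC. The letters CCGGAAG stood for an ETS site. The CCAAT box was searched by its name. The TATA box was searched as TATAAA. A GC box was searched as GGGCGG. For YY1 either ATGGCGGC or AAGATGGC counted, and the share was 4.35% of member promoters against 2.52% of all. Matches were counted on both strands over the 250 bases before the start, and a promoter counted once for each motif it held, also where motifs overlapped. Promoters were matched for 69 of the 79 members and compared with all 33469 promoters of the same table. The ETS letters stood in 20 member promoters (29.0%) against 7.27% of all promoters, and the NRF1 core stood in 9 (13.0%) against 2.20%. The CCAAT, TATA and GC box letters were about as frequent in members as in all promoters, at 31.9%, 8.70% and 36.2% against 34.0%, 12.9% and 30.5%. Median GC content was 56.0% in the members and 51.2% in all promoters. In the stretches above, Uqcrh (of the complex III hinge protein), Cox7a2 and Atp5pf each held the ETS letters. Cox6a2 held only a CCAAT match and Cox8b a TATA box and a GC box. The same stretch of Ndufs3, Cox4i1 and Atp5if1, also lower in hippocampus, held no ETS letters. Over the 250 bases the ETS letters stood in 8 of 21 promoters of members lower in hippocampus (38.1%). Among members not called between regions they stood in 12 of 47 (25.5%), and this difference was not tested. By complex, an NRF1 core or an ETS match was found in 8 of 29 promoters of complex I, 2 of 4 of complex II, 4 of 6 of complex III, 4 of 15 of complex IV and 7 of 15 of complex V. A match is a description of letters and not of binding.

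Signals are given as normalized log2 signal, in which each array has a mean of 0, and differences are on the same log2 scale. The members were bright: their median level was 8.26, against 1.93 for all named genes. Of the 79 members, 71 were well above background in all 24 rats of both regions and another 7 missed a single rat in a region because a spot was left out by the scanner's outlier flag. Cox8c, a testis form, was above background in no rat of either region and was not tested, so 78 members were. Within groups the members had a median residual SD of 0.180 in hippocampus (0.262 over all probes tested) and 0.263 in cortex (0.345). The probes tested were not matched to the members for brightness. In complex I the steadiest member was Ndufb7 in both regions (SD 0.0962 and 0.104), a small accessory subunit, and the most variable were Ndufs4 in hippocampus (0.295) and Ndufb8 in cortex (0.462). In complex V the range ran from Atp5mf (0.0943) to Atp5mc2 (0.357) in hippocampus and from Atp5f1c (0.126) to Atp5mc2 (0.420) in cortex. The complex II range was narrow in hippocampus, from Sdhb (0.103) to Sdhd (0.126), and ran in cortex from Sdhd (0.157) to Sdhc (0.338). Among complex IV members Cox6a2 varied most in hippocampus (0.730) and Cox7b least (0.151), and in cortex Ndufa4l2 varied most (0.669) and Cox8a least (0.190). In complex III Uqcrc2, a core protein, was steadiest in both regions (0.130 and 0.171), with Uqcrc1 the most variable in hippocampus (0.266) and Uqcrb in cortex (0.886).

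The percent of features well above background ranged from 60.7% to 69.7% over the 48 first arrays. The labels were checked against markers: the hippocampal list was higher in hippocampus (4 of 6 genes called, none lower) and 5 of 6 cortical genes were higher in cortex. A repeat array labelled as cortex of AI_iTBS 2 was left out. Over 300 variable probes it had r = 0.0016 with its own first array and 0.61 with that of AI_Sham 2. Whether the repeat or the first arrays of these 2 rats are mislabelled cannot be told. The aged impaired cortex results use the labels of the first arrays as given. In addition, 1 array with contradictory labels was put in no group. Of the 7 slides only 2 held first arrays of both regions, with 1 array of the other region on each, so slide and region mostly cannot be told apart. For 15 rats both first arrays were scanned in the first scan batch and for 9 both were scanned later. Of the later rats only AU_iTBS 3 had both regions in the same batch. In the others, which include all later sham rats, hippocampus was scanned in batch 3 and cortex in batch 2. In the later sham rats scan batch and region therefore cannot be told apart.

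The regions were compared in sham rats, where hippocampus and cortex of the same animal can be set side by side. In sham rats, 27 of the 78 members tested differed between hippocampus and cortex at an adjusted p under 0.05 (limma on the within-rat difference), where 35.9% of all probes did. Of these, 26 were lower in hippocampus, or 33.3% of the members against 16.7% of all probes, and 1 was higher. The members are brighter than most named genes, and the share over all probes was not matched for brightness. Called members were 10 of 32 in complex I, 1 of 8 in complex III, and 8 of the tested 18 and 16 in complexes IV and V, with none of 4 in complex II. The median difference over members was -0.16, with complex medians of -0.15 (I), -0.06 (II), -0.16 (III), -0.17 (IV) and -0.18 (V), against 0.03 over all probes. All 16 members of complex V had a difference below 0, although for Atp5pd it was -0.00. This median depended on how arrays were scaled: under quantile normalization it was -0.04, complex II turned to 0.03, and 14 members were called (36.6% of all probes), 12 of them lower (17.9% of all probes).

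**Figure D1:**
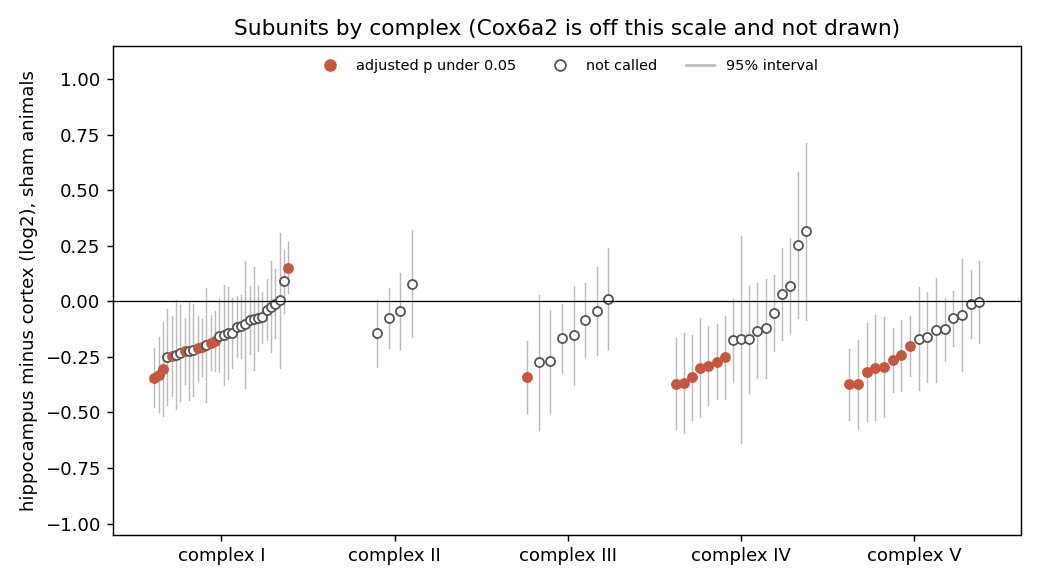
Differences between hippocampus and cortex in sham rats for each member tested except Cox6a2, on the log2 scale, by respiratory complex, with 95% intervals as grey lines and filled points for adjusted p under 0.05. Called members of complexes I, III, IV and V lie between -0.37 and -0.18 except Ndufv3 at 0.15, and no member of complex II is filled.

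Cox6a2, the form of cytochrome c oxidase subunit 6a best known from heart and skeletal muscle, stood apart from every other member. In the 12 sham rats its hippocampal level ran from 0.33 over a median of 1.41 to 2.41, and its cortical level from 4.51 over 5.74 to 6.71, so the regions did not overlap. It was above background in all 24 rats in both. The difference was -4.31 (SE 0.18, adjusted p = 1.3e-13), a level 19.9 times higher in cortex (95% interval 15.2 to 25.9), and was negative in 24 of 24 rats. Only 3 of 13674 named genes tested had a lower difference, and the next largest among the members was -0.37. A second Cox6a2 probe gave -4.18 (adjusted p = 2.8e-14). The value of the brightest probe lay between -4.44 and -3.74 under the other scalings, the hippocampal slide block and within the first and the later scan batches.

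The broadly expressed partner Cox6a1 differed far less. Its hippocampal level in sham rats ran from 10.27 over 10.65 to 11.01 and its cortical level from 10.60 over 10.90 to 11.28, which overlap. Its difference of -0.30 (SE 0.11, adjusted p = 0.034) went to 0.04 with normexp background correction. The other tissue forms of complex IV subunits moved little between regions. Cox8b, the heart and muscle form of subunit 8, was above background in all rats and had a difference of 0.25 (95% interval -0.07 to 0.58, adjusted p = 0.22), and its broadly expressed partner Cox8a lay at -0.05 (adjusted p = 0.65), a value that turned to 0.15 and was called under quantile normalization. Cox4i1, the common form of subunit 4, was lower in hippocampus by -0.25 (adjusted p = 0.034), again near 0 with normexp (0.01), and Cox4i2, the lung form, differed by 0.03 (adjusted p = 0.83). The testis form Cox6b2 had 0.32 (adjusted p = 0.21) against -0.18 for Cox6b1 (adjusted p = 0.13). The values of Cox7a2l, a supercomplex factor, of Ndufa4, now counted to complex IV, and of its relative Ndufa4l2 were -0.12, -0.13 and -0.17, with adjusted p of 0.41, 0.34 and 0.59.

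**Figure D2:**
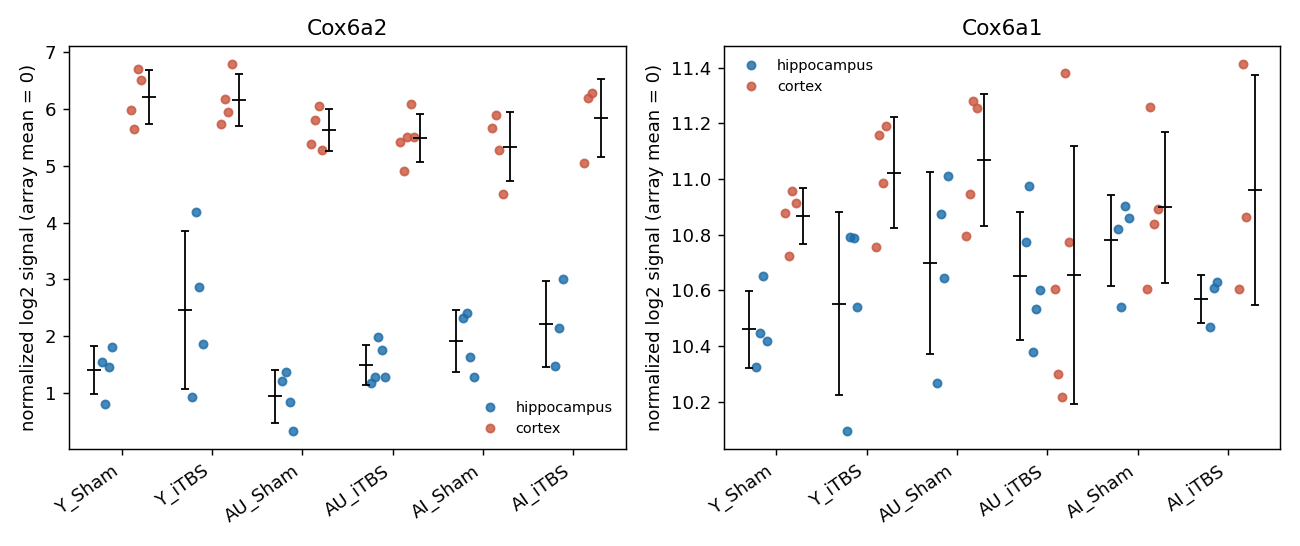
Normalized log2 signal of Cox6a2 (left) and Cox6a1 (right) in each rat by group, hippocampus in blue and cortex in red, with the group mean and SD in black. Every cortical value of Cox6a2 lies above every hippocampal value, the nearest being 4.18 in hippocampus of Y_iTBS 2, whereas the Cox6a1 values of the regions overlap; the vertical axes differ.

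In the peripheral arm of complex I, where NADH is oxidised, the called members included Ndufv1, which carries the flavin that accepts the electrons, Ndufv2 and Ndufs1, which carry iron-sulphur clusters, and Ndufs3 and Ndufs7, which lie on the side towards ubiquinone. Ndufs3 moved most. Its hippocampal level in sham rats ran from 6.74 over 7.06 to 7.19 and its cortical level from 7.21 over 7.42 to 7.51, with no overlap. The difference of -0.34 (SE 0.06, adjusted p = 2.0e-04) was negative in 24 of 24 rats. Ndufv1 followed at -0.33 (adjusted p = 0.0029) and the accessory subunit Ndufa10 at -0.30 (adjusted p = 0.024). The Ndufa10 probe was dim for a member (mean level 2.28). The brighter paralog Ndufa10l1 (8.03) had -0.08 (adjusted p = 0.43), and its second probe 0.09 (adjusted p = 0.28). Ndufv2, Ndufs1 and Ndufs7 lay between -0.21 and -0.19, and the accessory subunits Ndufb5 and Ndufb9 at -0.18 and -0.24. Ndufv3, an accessory subunit of the NADH-oxidising module, went the other way: its hippocampal level ran from 5.78 over 5.90 to 6.12 and its cortical level from 5.48 over 5.79 to 5.99. That difference of 0.15 (SE 0.06, adjusted p = 0.038) was positive in 9 of 12 sham rats. A second, dimmer Ndufv3 probe gave 0.03 (adjusted p = 0.76). The call held under 75th percentile scaling and quantile normalization. It was lost under normexp correction (0.13), with the hippocampal slide as a random block (0.15) and within the first scan batch (0.12).

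No member of complex II passed the test: Sdha, the flavoprotein, had -0.14, the iron-sulphur subunit Sdhb -0.04, and the membrane anchors Sdhc and Sdhd 0.08 and -0.07. Their median 95% half-interval was 0.16. In complex III the called member was Uqcrh, the acidic hinge protein that docks cytochrome c. Its hippocampal level ran from 8.29 over 8.49 to 8.76 and its cortical level from 8.45 over 8.86 to 9.17, which overlap between rats, though all 12 sham rats were lower in hippocampus. The difference was -0.34 (SE 0.08, adjusted p = 0.0016). The core proteins Uqcrc1 and Uqcrc2 had -0.27 (adjusted p = 0.063) and -0.08 (adjusted p = 0.44), and the Rieske protein Uqcrfs1 had -0.04.

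In complex IV, beside Cox6a2, Cox6a1 and Cox4i1, the small subunits Cox7a2, Cox6c, Cox7b and Cox5b and the pseudogene Cox6c-ps1 were lower in hippocampus, at -0.37, -0.37, -0.34, -0.27 and -0.29. Cox7a2 ran from 8.66 over 8.88 to 9.30 in hippocampus and from 9.03 over 9.26 to 9.61 in cortex, an overlapping pair of ranges with 11 of 12 sham rats lower in hippocampus (adjusted p = 0.0053). Cox5a and Cox7c did not pass (adjusted p = 0.27 and 0.63).

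In complex V the called members came from the stalks, the membrane part and the head. Atp5pf, a subunit of the peripheral stalk, ran from 7.82 over 7.94 to 8.12 in hippocampus and from 8.07 over 8.33 to 8.47 in cortex. The ranges touched at their ends, and the difference of -0.37 (SE 0.08, adjusted p = 6.6e-04) was negative in 12 of 12 sham rats. Atp5if1, the inhibitor that stops the enzyme from running backwards, ran from 8.56 over 8.71 to 8.89 in hippocampus and from 8.74 over 9.0 to 9.90 in cortex, with a difference of -0.37 (adjusted p = 0.0043). Atp5po and Atp5f1d, of the peripheral and central stalks, had -0.24 and -0.26, the small membrane subunits Atp5me, Atp5mf and Atp5mk had -0.32, -0.20 and -0.30, and Atp5f1a of the catalytic head had -0.30. Its catalytic neighbour Atp5f1b had -0.17 (adjusted p = 0.26), and the genes of the proton-carrying ring, Atp5mc1 and Atp5mc2, had -0.01 and -0.06.

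Of the 27 called members, 25 kept their sign and 12 were also called under each of 75th percentile scaling, quantile normalization, the authors' scores and normexp correction. Among these were Ndufa10, Ndufs3, Ndufv1, Uqcrh, Cox6a2, Cox6c, Cox6c-ps1, Cox7a2, Cox7b, Atp5if1 and Atp5pf. With the slide of the hippocampal array as a random block 10 members were called, where 21.2% of all probes were. The cortical slide did not enter that fit, so the fit cannot separate slide from region. Of the 21 members read by several probes, 8 were called by the brightest one and 4 of those by another probe too. The other probes of Cox5b (-0.11), Ndufv3 (0.03) and Atp5mk (-0.27, 0.07 and -0.13) were not called, and that of Cox6c-ps1 was not tested. A probe of opposite sign was found in 7 of the 21, though no probe was called in the opposite direction. In rats whose first arrays fell in the first scan batch 34 members were called, where 32% of all probes were. These include Y_Sham 3, whose averaged repeats were partly scanned in batch 2. The later batches held 4 sham rats, Y_Sham 1 and 2, AU_Sham 1 and AI_Sham 1, with the regions scanned in different batches. There Cox6a2 had -4.05. Ndufs1, Atp5f1a and Atp5mk read 0.04, 0.02 and 0.00, while the other called members kept their sign.

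Genes around the chain were read from lists drawn up for the purpose. Of 15 complex I assembly factors tested, 6 were called between regions, all lower in hippocampus, led by Ndufaf7 at -0.64 (adjusted p = 1.5e-05). Of 26 assembly factors for complexes II to V, 6 were lower and 2 higher, with Atpaf1, which helps build the head of complex V, at -0.70 (adjusted p = 3.8e-05). Among 14 regulators of mitochondrial genes 3 were lower and 2 higher: Ppargc1b, a coactivator of respiratory genes, had -0.69 (adjusted p = 4.5e-08), whereas Gabpa and Yy1 had 0.32 and 0.34 (adjusted p = 0.0049 and 0.0056). In the tricarboxylic acid cycle 3 of 17 were called, all lower, namely Fh (-0.42), Dlst (-0.29) and Cs (-0.15). In glycolysis 8 of 17 were lower and 1 was higher, with Ldhb at -0.43, Pfkp at -0.61 and Pfkl at 0.73. The remaining lists held 2 called of 8 carriers, both higher (Etfb and Etfdh, 0.25 and 0.21), and 2 of 18 outer structure and import genes, both lower (Mfn1 and Opa1, -0.26 and -0.37).

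Cell type markers differed between the regions alongside the members. Of 10 oligodendrocyte markers 9 were higher in hippocampus (median 0.59), with a mean level over the list of 6.73 to 7.34 in hippocampus and 6.02 to 7.28 in cortex of sham rats. Of 8 astrocyte markers 4 were higher and 1 lower (6.65 to 7.01 against 6.18 to 6.82), and of 14 neuronal markers 4 were higher and 4 lower (5.67 to 6.13 against 5.74 to 6.23). Of 10 endothelial and mural markers 6 were lower in hippocampus and none higher (3.31 to 3.64 against 3.56 to 4.16), and 3 of 6 blood genes were lower (2.82 to 4.45 against 2.78 to 4.92). Of 8 choroid plexus markers 6 were higher in hippocampus (-0.55 to 2.68 against -1.32 to 0.33), with Kl and Clic6 above background in 1 cortex each. Of 10 microglial markers 3 were higher (4.60 to 5.08 against 3.98 to 4.94). The part of these markers in the members' differences was not tested.

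Rats that had received iTBS were compared with sham rats in each group of rats, and no member passed the test in any of these comparisons. In hippocampus 0 of 78 members were called in young, aged unimpaired or aged impaired rats or in both aged groups together, where 0% of all 32503 probes were. At an unadjusted p under 0.05 there was 1 member in young rats (4.51% of all probes) and none among the aged unimpaired (2.29%), the aged impaired (1.95%) or both together (2.48%). In cortex 0 members were called in young, aged unimpaired and both aged groups together, where 0% of 32613 probes were called, and 0 in aged impaired rats, where 0.00613% of probes were. At an unadjusted p under 0.05 the cortex held 1 member in young (2.7% of all probes), 1 in aged impaired (4.09%) and none in both aged groups together (2.92%). The median 95% half-interval of a member was 0.28 in hippocampus and 0.40 in cortex of young rats. These intervals are for one gene before adjustment over all probes, so a call needed a larger difference than they show. The combined rule of p-values, false discovery rate and z-ratio from the methods was run on the deposited scores in 8 comparisons and picked 0 members, out of 6 to 76 probes picked in all. In young rats it picked 57 probes in hippocampus and 15 in cortex, fewer than the genes the study listed there. The selection of the study was thus not reproduced, and the 0 members hold for this re-run only.

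The member of smallest p in young hippocampus was again Cox6a2. Its levels were 1.55, 0.81, 1.45 and 1.80 in Y_Sham and 0.93, 4.18, 2.87 and 1.86 in Y_iTBS, so 3 of the 4 stimulated rats lay above the sham range and 1 within it. The difference was 1.06 (SE 0.49, adjusted p = 0.93), and without Y_iTBS 2 it was 0.48. In that rat the second Cox6a2 probe read 2.58, and over that probe the difference was 0.75 (adjusted p = 0.93). Within the first scan batch the difference was 1.34 and within the later ones -0.25, where Y_iTBS 1 was the only stimulated young rat. For the difference between regions the young iTBS effect on Cox6a2 was 1.11 (adjusted p = 1.00), or 0.54 without that rat. The members of next smallest p there were Ndufs7, Cox7c, Cox4i2 and Cox6c-ps1. The other members of smallest p in young hippocampus, Sdhb, Ndufb6, Cox6b1 and Atp5f1d, had differences of 0.15, 0.14, 0.22 and 0.16 and adjusted p of 0.93. In young cortex they were Cox7c (-0.39), Cox6c-ps1, Uqcr11, Sdhd and Ndufb8, with adjusted p of 1.00.

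In cortex of aged unimpaired rats most members read lower after iTBS, without any passing the test. Of 78 members 68 were below 0 and the median was -0.26, against 0.04 over all probes, and 11 had an unadjusted p under 0.05, 10 of them lower, where 8.38% of all probes did. The smallest p belonged to Cox5b, Sdhd, Uqcrc2, Atp5me and Atp5po (adjusted p = 0.58 for each). Cox5b, a subunit that binds zinc, read 9.43, 9.44, 9.75 and 9.66 in AU_Sham and 9.10, 8.88, 8.97, 9.56 and 9.41 in AU_iTBS. Of the stimulated rats AU_iTBS 4 lay within the sham range and the other 4 below it, for a difference of -0.39 (SE 0.15), which was -0.12 under quantile normalization. Atp5me read 10.45, 10.51, 10.83 and 10.91 in AU_Sham and 10.04, 9.87, 9.71, 10.86 and 10.35 in AU_iTBS, with the same rat high (difference -0.51, and -0.21 under quantile normalization). The median of the members shrank with it, to -0.09 under 75th percentile scaling and -0.05 under quantile normalization. With scan batch as a term it was -0.16, in rats of the first batch -0.06 and in rats of the later ones -0.26. Batch goes by the first array, and the mean of AU_iTBS 4 also held a repeat from batch 2. The later batches held AU_Sham 1 as the only AU_Sham rat. They also held AU_iTBS 1, 2 and 3, which had the lowest cortical member means of their group (-0.18, -0.30 and -0.26).

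In aged impaired cortex the members read the other way, with a median of 0.12 and 63 of 78 above 0, but under normexp correction the median was -0.00. Uqcrb, a subunit of complex III that helps to bind ubiquinone, had 1.07 there (SE 0.64, adjusted p = 1.00), and this rested on AI_Sham 1, which read 3.91 where the other 23 rats read 7.73 to 8.46. Without that rat the difference was 0.01. A second, dimmer Uqcrb probe read 4.01 in AI_Sham 1, within its range of 3.56 to 4.27 over all rats. Ndufa2, Atp5pb, Sdhc and Ndufa4 were the other members of smallest p (0.26, 0.27, 0.47 and 0.30). In hippocampus the medians after iTBS were 0.04 in young, 0.00 in aged unimpaired and -0.04 in aged impaired rats, and the young value turned to -0.01 under quantile normalization. The members of smallest p in aged unimpaired hippocampus were Cox7b (0.15), Sdhb (-0.11), Cox8b (0.29), Uqcr11 and Cox6a2, and in aged impaired hippocampus Cox5a (-0.25), Atp5pb (0.17), Ndufa9, Cox6a1 and Ndufs4, all with adjusted p of 1.00. Over both aged groups they were Atp5mc1, Uqcrfs1, Sdhb, Cox6c-ps1 and Uqcr11 in hippocampus (adjusted p = 0.98) and Ndufv1, Cox5b, Cox4i2, Atp5me and Ndufa5 in cortex (adjusted p = 1.00).

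**Figure D3:**
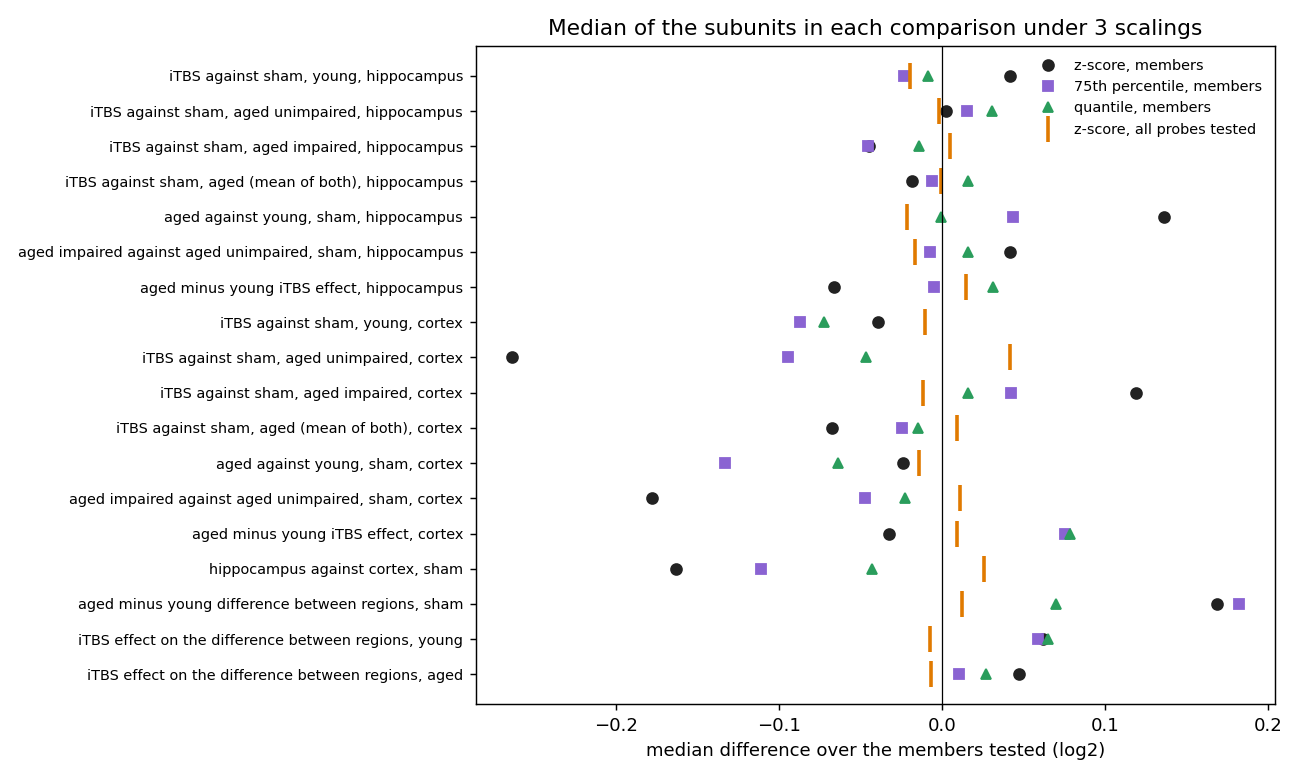
Median log2 difference over the 78 members tested in each comparison (rows) under z-score scaling (circles), 75th percentile scaling (squares) and quantile normalization (triangles), with the median of all probes under z-score scaling as orange bars. For iTBS in aged unimpaired cortex the median goes from -0.26 to -0.05, and for aged against young hippocampus from 0.14 to -0.00, while that between regions goes from -0.16 to -0.04.

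The mean over the 71 members without a missing value, taken relative to the region, had an SD over the 24 rats of 0.102 in hippocampus and 0.146 in cortex, and of 0.0315 and 0.0499 under quantile normalization. The z-score divides each array by the SD of its log2 signal, and the members lie far above the array mean, so a larger SD lowers their value by construction and no test is given. Over the 24 rats of a region, the correlation of the member mean with that SD was r = -0.80 in hippocampus (Spearman's rho = -0.83) and r = -0.74 in cortex (rho = -0.72). Under quantile normalization, which does not use the SD, r was 0.25 in hippocampus and 0.09 in cortex. The AU_Sham cortex arrays had SDs of 3.94 to 3.99 and the AU_iTBS cortex arrays of 3.96 to 4.21, with 61.1% to 63.4% and 62.9% to 69.7% of features above background. In sham rats the mean SD of the Y, AU and AI arrays was 4.21, 4.09 and 4.05 in hippocampus and 4.11, 3.96 and 4.08 in cortex. The part of the array SD in the differences between groups or regions was not tested beyond the scalings given.

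**Figure D4:**
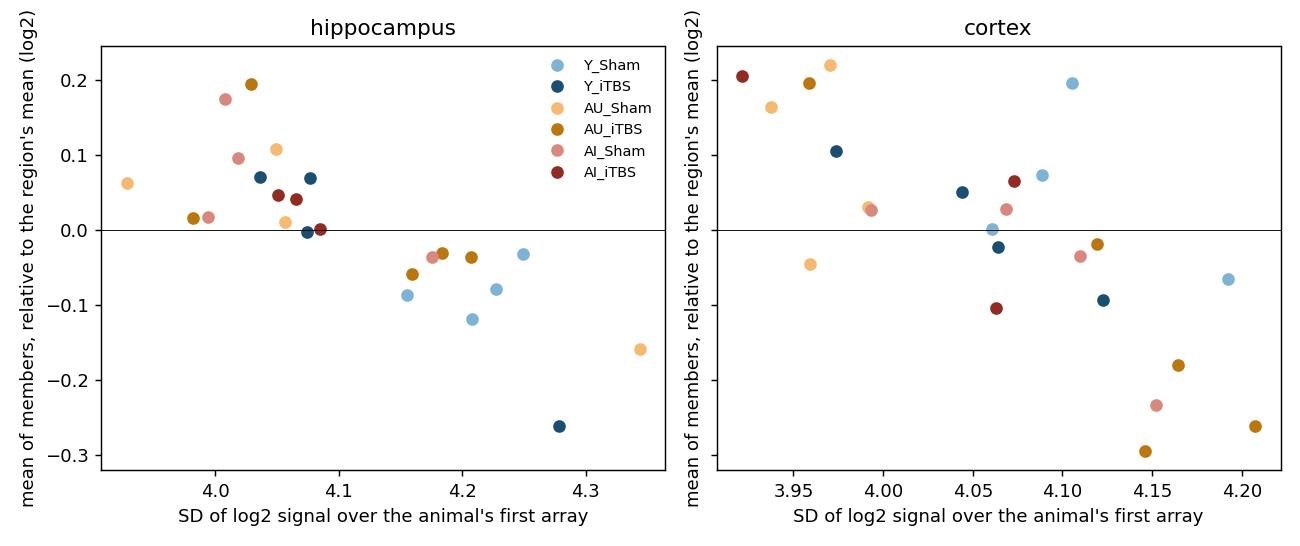
Mean of the 71 members in each rat relative to the mean of its region (vertical, log2) against the SD of log2 signal over the first array of that rat (horizontal), in hippocampus (left) and cortex (right), coloured by group. In both regions the member mean falls from left to right (r = -0.80 and -0.74), as the division by the SD makes bright genes do, and the AU_iTBS cortex spans the range.

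Age was compared in sham rats. In hippocampus 0 of 78 members were called, where 0.00308% of all probes were, and 10 had an unadjusted p under 0.05 (8.18% of all probes), 9 of them higher in aged rats. The median was 0.14 with 65 of 78 above 0, and was -0.00 under quantile normalization. Cox5a, a core nuclear subunit of complex IV, read 7.88, 8.06, 7.97 and 8.28 in Y_Sham, 8.34, 8.55, 8.44 and 8.19 in AU_Sham and 8.51, 8.23, 8.40 and 8.51 in AI_Sham. The young and aged ranges overlapped through Y_Sham 4, and the difference was 0.35 (SE 0.12, adjusted p = 0.58), or 0.21 under quantile normalization. Ndufa7, Sdhb, Ndufb3 and Ndufb6 followed with 0.25, 0.18, 0.24 and 0.19.

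In cortex 0 of 78 members were called with age, where 0.104% of all probes were (0.0767% higher and 0.0276% lower in aged rats), and 5 had an unadjusted p under 0.05 (9.46% of all probes). Cox6a2 was among them, at 5.99, 5.66, 6.71 and 6.51 in Y_Sham, 5.38, 5.82, 6.05 and 5.28 in AU_Sham and 5.66, 5.89, 5.29 and 4.51 in AI_Sham. The aged rats reached lower and overlapped the young, with a difference of -0.73 (SE 0.29, adjusted p = 0.47). Cox7c, a small complex IV subunit, had -0.40 (adjusted p = 0.45), with the young rats at 5.73, 5.78, 5.71 and 5.00 and the aged sham rats from 4.86 to 5.45. Atp5f1b, Cox6c-ps1 and Sdha had 0.29, -0.32 and 0.37. Sdha rested on Y_Sham 4, which read 6.33 against 7.32 to 7.41 in the other young sham rats, and was 0.11 without it. The difference between regions changed with age for no member (0 of 78 called, where 0.00296% of all probes were), and 2 had an unadjusted p under 0.05 (6.46%). The smallest p was that of Sdha, at -0.44 (adjusted p = 0.73), and without Y_Sham 4 this was -0.21. Cox6c-ps1 had 0.51, Ndufa10 0.43, Cox6a2 0.75 and Cox7c 0.42, and the median over members was 0.17.

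Impaired and unimpaired aged sham rats were compared last. No member was called in either region, where 0% of all probes were, and at an unadjusted p under 0.05 there was 1 member in hippocampus (4.05% of all probes) and 2 in cortex (6.44%). In hippocampus the muscle form Cox8b read 1.43, 1.73, 0.96 and 0.97 in AU_Sham and 2.56, 1.81, 1.89 and 1.65 in AI_Sham, overlapping by 1 rat of each group, for a difference of 0.71 (SE 0.23, adjusted p = 1.00) that was 0.51 without AI_Sham 1. Cox6a2 had 0.97, Ndufa9 -0.16, Cox4i2 0.24 and Atp5f1b -0.19. In cortex Ndufa2 had -0.29 (adjusted p = 0.68) and Atp5mk -0.33 (adjusted p = 0.74), followed by Ndufa4 (-0.32), Uqcrb (-1.13, or -0.07 without AI_Sham 1) and Cox7b (-0.29). The cortical median of -0.18 was -0.02 under quantile normalization.

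The aged and young responses to iTBS were compared directly, and no member was called in hippocampus, in cortex or in the difference between regions, where 0% of all probes were. At an unadjusted p under 0.05 there was 1 member in hippocampus (4.29% of all probes) and 1 in cortex (3.21%), and the iTBS effect on the difference between regions had 1 in young rats (2.65%) and none in aged rats (2.29%). In hippocampus Sdhb came nearest, at -0.23 (adjusted p = 0.80), with Ndufa9, Cox6b1, Ndufs4 and Atp5pb behind it. In cortex Cox7c had 0.50 (adjusted p = 1.00), followed by Cox4i2, Uqcr11, Ndufb8 and Cox6c-ps1. For the aged iTBS effect on the difference between regions the smallest p belonged to Ndufs3, at 0.14 (adjusted p = 1.00), with Sdhb, Uqcr11, Ndufv1 and Uqcrc2 next. None of the genes on the lists around the chain or on the marker lists was called in any comparison other than that between regions.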

How the data were processed

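One-colour Agilent arrays (Cy3) were read for hippocampus and parietal cortex. The deposited intensity values were the processed signals of the scanner software (Feature Extraction 12.0.3.1, per the file headers), and the authors also deposited a table of scores, which equalled the z-score of log2 processed signal over all features of an array within 0.005. Here spots flagged as outliers (267 to 1448 per array) were left out, spots of a probe were averaged on the log2 scale, and each array was z-scored and multiplied by the mean SD (4.08). Of 45598 probes 46.3% had a symbol through RefSeq. Where a rat had a technical repeat of the same region (6 usable repeats), its arrays were combined into a mean before any fit. The scan batch of a rat was that of its first arrays, although some of the averaged repeats were scanned in another batch.

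Probes well above background in at least 3 of 24 rats of a region were tested with limma 3.58.1 (R 4.3.3), with 6 group means, and p-values were adjusted by Benjamini-Hochberg over all probes tested. Between regions the within-rat difference was fitted, and its slide block held the slide of the hippocampal array only. P-values measure the spread between rats. The number of arrays limits the precision. Alternatives were 75th percentile scaling, quantile normalization, the deposited scores, normexp (offset 50, on median signals), dim-probe filters, slide, scan batch and replicate blocks, and leaving out each rat.

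Members, gene lists and named genes were chosen with earlier results of these data known. Named were the tissue forms and Atp5if1, between regions the 3 called members of largest difference per complex and side, elsewhere called members or the 5 of smallest p, the steadiest and most variable member of each complex, and called genes of the other lists (at most 3). Further members are named as called members or as neighbours of the same part of a complex, after their values were seen. The fit was tested on simulated data with 200 changed probes.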

Additional observations from a re-analysis of the deposited data

Results flagged for a closer look

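Of 327 sets of rats of one group examined for a single rat far from the others (a member or a complex mean in 1 group and region), 23 stood out, or 7.03%, where chance gives about 1 in 20. The sets share rats and are not independent, so this share is not a test against chance. The values are normalized log2 signals, and complex means are relative to the region.

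In hippocampus of Y_iTBS 1 the complex III mean was -0.2413 where the other rats of the group lay from 0.04 to 0.06, and Cox4i1 (9.31), Cox6b1 (2.669) and Atp5mc1 (8.492) were low in the same tissue. Its cortex was low for Atp5if1 (8.792), Cox4i1 (9.767) and Atp5mc2 (8.718). In hippocampus of AU_Sham 1 the complex III mean was -0.1307 and Atp5if1 8.562, both low, while Uqcrh was high in AU_Sham 4 (8.731) and Atp5if1 in AU_iTBS 2 (9.087). A larger array SD lowers bright members by construction. That SD was the largest of its group in Y_iTBS 1 hippocampus (4.28) and cortex (4.12) and in AU_Sham 1 hippocampus (4.34). The part of the SD in these flags was not tested.

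In hippocampus of AI_Sham 2 the broadly expressed Cox6c (9.431) and Atp5me (10.01) were low and the tissue forms Cox4i2 (5.053) and Cox6b2 (6.827) were high. In cortex of Y_Sham 4 Cox7c (4.996) and Sdha (6.332) were low, the latter against 7.32 to 7.41 in its group. In cortex of AI_Sham 1 Uqcrb (3.91, against 8.07 to 8.24) and Atp5mc2 (7.908, against 9.09 to 9.20) were low and Cox7c was high (5.409). The remaining values in cortex were a low Ndufs3 in AU_Sham 1 (7.341), a high Ndufa4 in AU_Sham 4 (9.439) and a low Ndufv3 in AU_iTBS 2 (5.464). The array SD was also the largest of its group in AI_Sham 2 hippocampus (4.18) and AI_Sham 1 cortex (4.15). It was not the largest in the cortex of Y_Sham 4, AU_Sham 1 and AU_iTBS 2, which held the other low values.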

How the results depend on the processing

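Between regions 27 members were called. The count was 14 under quantile normalization (36.6% of all probes called) and 10 with the hippocampal slide as a random block (21.2%). Leaving out 1 rat at a time gave 19 to 32 (32.1% to 35.8% of all probes). Within the later scan batches, with AU_Sham 1 and AI_Sham 1 as the only rats of their groups, the Cox6a2 difference was -4.05. Fits within a scan batch were chosen after seeing the data. Background correction by normexp turned Cox4i1 to 0.01 (0.007218) and Cox6a1 to 0.04 (0.03998), both called lower otherwise, and Cox8a, not called at -0.05, went to 0.15 (0.1453) under quantile normalization and 0.17 (0.172) under normexp. The causes were not tested. Within the later scan batches 1 member, Uqcrb, was called for iTBS in aged impaired cortex (4.03) and 1, again Uqcrb, for impaired against unimpaired sham cortex (-4.11), in batches where AI_Sham 1 is the only AI_Sham rat. In the 17 comparisons other than that between regions, leaving out 1 rat at a time called 0 members.

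Same-numbered rats of different groups had a median correlation of 0.063 in hippocampus (lowest -0.29) and 0.082 in cortex (lowest -0.28). Differently numbered rats had medians of -0.016 and -0.047. Replicate 1 of every group was scanned in a later batch, so the number goes in part with scan batch. Whether the numbers pair the rats cannot be told from these values. With the replicate number as a block 0 members were called in each comparison within a region, and without pairing the regions of a rat 25 members were called between regions. The number of arrays limits what small differences could be seen: the median 95% half-interval of a member was 0.20 to 0.49 by comparison.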

Other observations

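One array had labels that contradict each other and entered no comparison. Its member mean was -0.02 relative to the hippocampal mean, with -0.01 for complex I, -0.07 for complex II, -0.02 for complex III, -0.03 for complex IV and -0.03 for complex V, and Cox6a2 read 1.63.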
